A study of Mus musculus with 6 samples.

Results

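The subject here is the semaphorins and their receptors, the plexins and neuropilins, in C2C12 myotubes, the multinucleated cells that this established mouse myoblast line forms in low-serum medium. Genes were taken by name from the deposited table, as every gene called Sema of classes 3 to 7, Plxn of types a to d, or Nrp1 or Nrp2. This gave 31 of 55401 genes: 20 semaphorins, 9 plexins and 2 neuropilins, all protein-coding. RNA from 3 cultures given an siRNA against Senp7 (SENP7 siRNA) was compared with RNA from 3 cultures given GL2 siRNA, whose target is the luciferase of the firefly (control siRNA). Every culture received 100 pmol of siRNA for 3 days, in medium with horse serum, and the submitters call the 3 libraries per group biological replicates. SENP7 is a protease that removes SUMO chains from proteins, and the comparison asked which transcripts depend on it. The labels do not say how many siRNA sequences were used against Senp7, and the measurements come from a single cell line.

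Semaphorins are guidance proteins that share an extracellular sema domain. Class 3 proteins are secreted, classes 4, 5 and 6 span the membrane, and class 7 is held to the cell surface by a lipid anchor. Plexins are their main receptors, and carry inside the cell a domain that switches off Ras-type GTPases such as Rap1. Most class 3 semaphorins reach plexins through neuropilins, co-receptors that also bind vascular endothelial growth factors. The system is best known for steering axons and blood vessels. In muscle, cells of the lineage themselves make semaphorins, among them Sema3a, studied as a signal between muscle and motor axons.

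Values are normalized counts, the authors' read counts per gene divided by 1 factor per library. Libraries held 25223218 to 30865945 reads assigned to genes, and a normalized count of 1 was worth about 1 read. Where 3 values are given for a group they are those of replicates 1, 2 and 3. Unless stated otherwise, an adjusted p is from limma with Benjamini-Hochberg adjustment over all 14668 genes tested, and a gene passed at 0.05. The log2 fold changes are differences of log2(normalized count + 1), SENP7 siRNA minus control siRNA, which understates the change of low genes. Senp7 itself was at 556.4, 616.4 and 648.8 with control siRNA against 275.0, 279.2 and 346.7 with SENP7 siRNA (log2 fold change -1.02 ± 0.11 SE, adjusted p = 0.000428). On the first principal component control replicate 3 (-19.1) lay nearer to the SENP7 libraries (27.7 to 32.5) than the other control libraries did (-36.7 and -33.3). Within groups, the chi-square statistic of the counts, averaged over genes, was 1.74 between SENP7 replicates 1 and 2 and 7.30 to 37.9 between the remaining pairs. Read sampling alone gives about 1, so SENP7 replicates 1 and 2 were far more alike than the other pairs. The tests count them as separate replicates.

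SENP7 siRNA changed 17 of the 31 genes: 10 rose, 7 fell and 14 did not pass. This is 54.8% of the genes, where 20.9% of all genes tested changed. Rising genes made up 32.3% against a background of 10.2%, and falling genes 22.6% against 10.7%. All 31 genes met the filter on counts, but Plxnc1 met it through the SENP7 libraries alone and Sema5b through the control libraries alone, so both had to differ to be tested. In 20 genes (64.5%) no SENP7 library overlapped a control library, against 39.6% of all genes tested. Among the semaphorins, of 7 class 3 genes 5 rose and 0 fell, of 4 class 6 genes 3 rose and 0 fell, and of 6 class 4 genes 4 fell and 0 rose. The lone class 7 gene fell. Among receptors, 3 of 9 plexins changed and neither neuropilin passed. The count of falling genes was 4 without control replicate 2, and that of rising genes was 7 without SENP7 replicate 2 or 3 and 13 without control replicate 3.

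**Figure D1:**
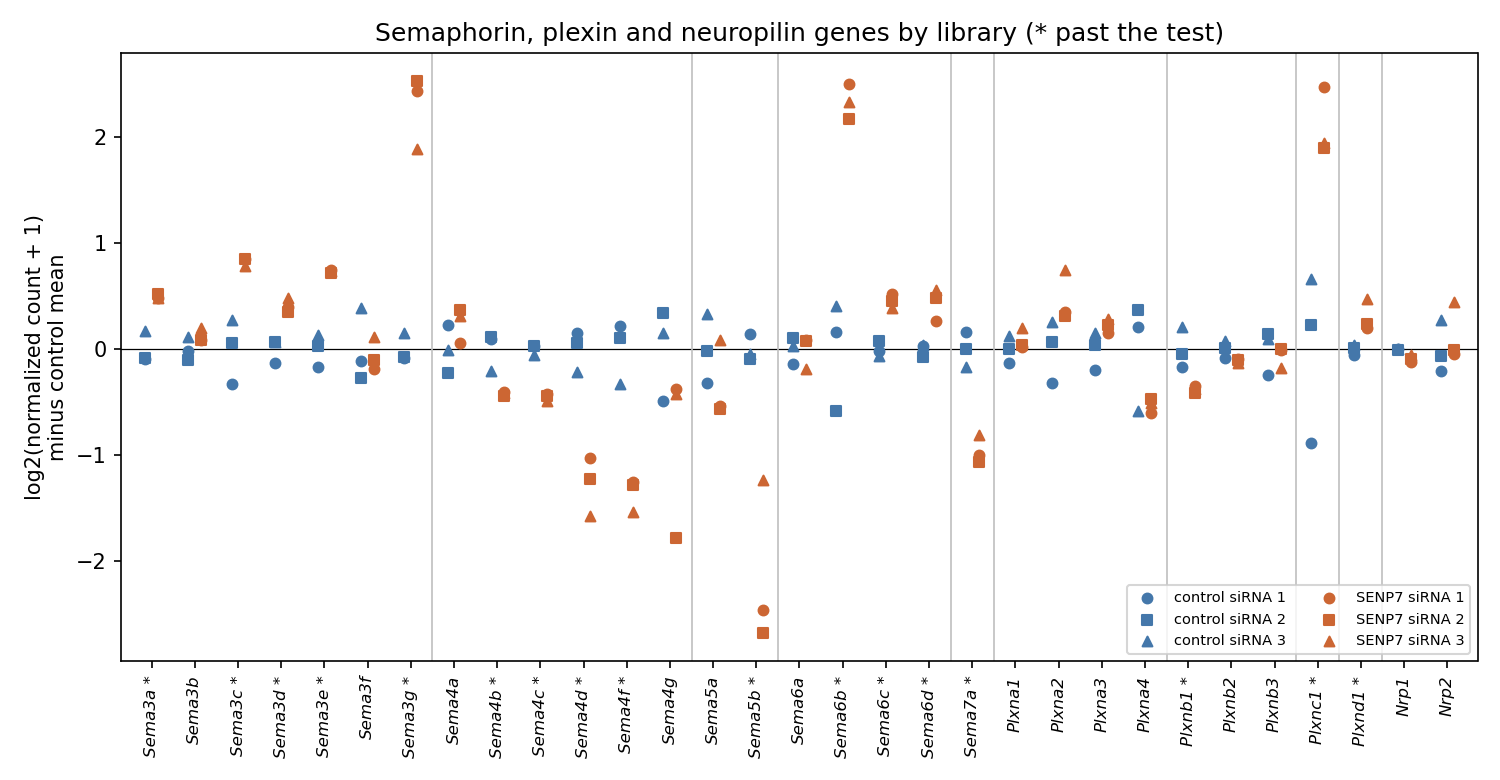
Each point is 1 library. The vertical axis is log2(normalized count + 1) minus the mean of the 3 control libraries for that gene, genes are grouped by family between grey lines, and an asterisk marks the 17 genes that passed the test. Class 3 genes that changed lie above 0 in every SENP7 library and class 4 genes that changed lie below it, with Sema3g, Sema6b and Plxnc1 highest and Sema5b lowest.

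The secreted class 3 semaphorins rose or did not pass. Sema3g had the largest rise of the class, 5.05-fold. It stood at 35.28, 35.60 and 41.83 with control siRNA against 206.7, 221.4 and 141.1 with SENP7 siRNA (log2 fold change 2.28 ± 0.19 SE, adjusted p = 0.000133). SENP7 replicate 3 was the lowest of its group and still far above each control library. Sema3c, known for its part in heart outflow tract development, was at 716.6, 937.9 and 1087 with control siRNA against 1625, 1623 and 1551 with SENP7 siRNA (0.83 ± 0.13, adjusted p = 0.00276). Control replicates spread widely for Sema3c and the SENP7 replicates hardly at all, with no overlap. Sema3e, which binds plexin-D1 directly without a neuropilin, rose 1.66-fold, from 1019, 1173 and 1257 to 1923, 1885 and 1907 (0.73 ± 0.08, adjusted p = 0.000443). The SENP7 values of Sema3e lay very close together, and the groups did not overlap.

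Sema3a, which collapses growth cones through neuropilin-1 and A-type plexins, was at 945.4, 947.9 and 1133 with control siRNA against 1404, 1442 and 1405 in the SENP7 libraries. That rise was 1.40-fold (0.49 ± 0.08 on the log2 scale, adjusted p = 0.00302). Sema3d went from 2621, 3009 and 3008 to 3793, 3664 and 4010 (0.41 ± 0.07, adjusted p = 0.00458), a smaller step with no overlap between groups. These 5 genes rose and passed in each alternative analysis run. Sema3b, at 3387 ± 258 (SD, n = 3) and 3691 ± 173, did not pass (0.13, 95% interval -0.03 to 0.28), although it did when control replicate 3 was left out (adjusted p = 0.0421, range of the alternatives 0.0421 to 0.563). Sema3f was at 356.7 ± 88.7 and 337.4 ± 37.2, and its small difference (-0.06) turned to 0.14 without control replicate 3. Sema3b and Sema3f lie close together on chromosome 9, from 107597674 to 107609229 and from 107681500 to 107710475 on the minus strand (GRCm38).

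The 4 smaller rises came from genes on the same chromosome. Sema3d, Sema3a, Sema3e and Sema3c lie in that order on the plus strand of chromosome 5, starting at 12383385, 13125414, 14025276 and 17574281 (GRCm38), within 5.35 Mb. Sema3g is on chromosome 14 (31217860 to 31230352, plus strand). The chromosome 5 window was looked at after the values were seen. It held 77 genes of the table, of which 9 were tested, and of the 5 that are not semaphorins 2 rose, 0 fell and 3 did not pass, where 10.2% of all genes tested rose. With 5 genes, nothing is read from this count. The risers were Pclo, which encodes a presynaptic scaffold protein (137.1, 175.8 and 220.8 against 346.0, 340.2 and 421.6, adjusted p = 0.00290), and the gene model Gm43719 (adjusted p = 0.0361). The calcium channel subunit gene Cacna2d1 (0.15 on the log2 scale) and the growth factor gene Hgf (0.17) did not pass, nor did Gm6650. Both Cacna2d1 and Hgf lie between Sema3e and Sema3c.

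RefSeq promoter windows (GRCm38.p6, 250 bases before to 50 after an annotated start) are printed 5′ to 3′ for the class 3 genes that rose. These are the semaphorin genes of the chromosome 5 window, and Sema3g, the class 3 gene with the largest rise. Capitals mark the E-box CANNTG, the core pattern bound by myogenic factors, which reads the same on either strand.
Sema3d, chr5:12382916-12383215, plus strand: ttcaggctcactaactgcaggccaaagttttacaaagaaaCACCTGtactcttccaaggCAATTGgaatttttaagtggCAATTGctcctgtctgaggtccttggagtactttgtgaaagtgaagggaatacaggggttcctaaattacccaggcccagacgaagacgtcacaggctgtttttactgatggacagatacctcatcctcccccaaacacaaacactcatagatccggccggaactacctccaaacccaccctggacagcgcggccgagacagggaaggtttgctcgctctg
Sema3a, chr5:13396534-13396833, plus strand: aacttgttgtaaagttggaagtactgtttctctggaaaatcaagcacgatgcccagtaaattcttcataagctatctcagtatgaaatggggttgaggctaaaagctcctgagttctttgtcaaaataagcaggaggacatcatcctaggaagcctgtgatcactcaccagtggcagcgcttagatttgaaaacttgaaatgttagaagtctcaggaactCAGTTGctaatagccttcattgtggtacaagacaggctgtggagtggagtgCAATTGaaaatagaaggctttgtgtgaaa
Sema3e, chr5:14025026-14025325, plus strand: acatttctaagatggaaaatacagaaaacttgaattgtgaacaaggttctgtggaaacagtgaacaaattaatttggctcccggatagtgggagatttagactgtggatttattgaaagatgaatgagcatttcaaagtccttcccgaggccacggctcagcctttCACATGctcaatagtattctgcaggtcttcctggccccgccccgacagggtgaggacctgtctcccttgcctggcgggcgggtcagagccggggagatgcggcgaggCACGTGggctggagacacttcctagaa
Sema3c, chr5:17574566-17574865, plus strand: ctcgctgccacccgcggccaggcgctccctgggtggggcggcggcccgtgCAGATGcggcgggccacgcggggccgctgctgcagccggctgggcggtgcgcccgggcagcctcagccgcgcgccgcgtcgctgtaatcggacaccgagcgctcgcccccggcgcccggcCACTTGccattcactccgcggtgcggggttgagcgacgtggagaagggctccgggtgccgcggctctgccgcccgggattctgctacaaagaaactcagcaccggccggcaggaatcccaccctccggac
Sema3g, chr14:31217623-31217922, plus strand: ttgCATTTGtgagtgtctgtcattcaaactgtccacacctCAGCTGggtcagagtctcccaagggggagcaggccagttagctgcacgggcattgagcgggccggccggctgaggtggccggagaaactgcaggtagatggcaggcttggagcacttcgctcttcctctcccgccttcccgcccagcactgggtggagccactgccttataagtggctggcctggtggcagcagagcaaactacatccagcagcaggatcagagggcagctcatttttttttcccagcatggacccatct
The 5 windows were unlike in base composition. Sema3c had a G and C content of 75.7% with 42 CpG dinucleotides, whereas Sema3a had 41.3% with 2, and the median over all 32851 windows was 52.7% with 7. The RefSeq start of Sema3a lies far inside the span that the deposited table gives the gene, so its window is that of an internal start there. Each of the 5 held 2 or 3 E-boxes, and 72.3% of all windows held at least 1. Of 37 windows for the 26 genes with an entry, 21 held one (56.8%). For the form CAGCTG these shares were 16.2% of the genes' windows and 16.3% of all, and Sema3g was the sole one of the 5 with it. Plxna1, Plxna4, Sema3b, Sema3f and Sema6a had no entry.

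The membrane-spanning class 4 semaphorins fell where they changed. Sema4f fell 2.6-fold, from 299.4, 275.9 and 204.3 with control siRNA to 107.4, 104.8 and 88.10 with SENP7 siRNA (log2 fold change -1.35 ± 0.16 SE, adjusted p = 0.000706). Sema4d, the ligand of plexin-B1 also known as CD100 on immune cells, fell 2.40-fold, from 1112, 1041 and 863.8 to 491.5, 429.0 and 336.3 (-1.27 ± 0.14, adjusted p = 0.000546). In both genes control replicate 3 was the lowest control library and still well above the SENP7 libraries. Sema4c, which binds plexin-B2 and has been studied in myoblast differentiation, went from 2787, 2789 and 2638 to 2045, 2018 and 1950 (-0.45 ± 0.05, adjusted p = 0.000812). Its spread within a group was small, and no value overlapped. Exons of D430040D24Rik lie on the opposite strand over 7.3% of the Sema4c exon length, and that gene stood at 77.5 and 76.1 normalized counts on average.

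Sema4b, at 855.7, 866.7 and 696.5 with control siRNA against 605.1, 592.7 and 602.5 in the SENP7 libraries, fell by less (-0.42 ± 0.09, adjusted p = 0.0124). Leaving out replicate 2 of either group ended the call (adjusted p = 0.0657 for the control library and 0.0548 for the SENP7 library), within 0.000187 to 0.0657 over all alternatives. The other 2 class 4 genes were low. Sema4g had 17.13, 31.15 and 27.24 against 18.63, 6.419 and 18.00 (-0.86, 95% interval -1.79 to 0.08, adjusted p = 0.177), and Sema4a 19.77 ± 3.26 against 23.57 ± 2.79. Neither passed.

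Sema7a, the lipid-anchored semaphorin that binds plexin-C1 and integrins, fell 1.94-fold. It went from 2334, 2096 and 1866 with control siRNA to 1050, 999.2 and 1194 with SENP7 siRNA (-0.95 ± 0.10, adjusted p = 0.000310), the smallest adjusted p among the 7 falling genes. Each control library lay far above each SENP7 library. Sema4f and Sema7a are shown next by their RefSeq windows as the class 4 gene with the largest fall and the class 7 gene, with E-boxes in capitals.
Sema4f, chr6:82939720-82940019, minus strand: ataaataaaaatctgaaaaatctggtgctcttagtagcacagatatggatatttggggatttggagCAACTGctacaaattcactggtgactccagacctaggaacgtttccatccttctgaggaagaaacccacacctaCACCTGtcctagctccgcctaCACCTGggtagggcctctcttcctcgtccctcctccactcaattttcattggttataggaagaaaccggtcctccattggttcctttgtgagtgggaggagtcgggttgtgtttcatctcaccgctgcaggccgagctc
Sema7a, chr9:57939862-57940161, plus strand: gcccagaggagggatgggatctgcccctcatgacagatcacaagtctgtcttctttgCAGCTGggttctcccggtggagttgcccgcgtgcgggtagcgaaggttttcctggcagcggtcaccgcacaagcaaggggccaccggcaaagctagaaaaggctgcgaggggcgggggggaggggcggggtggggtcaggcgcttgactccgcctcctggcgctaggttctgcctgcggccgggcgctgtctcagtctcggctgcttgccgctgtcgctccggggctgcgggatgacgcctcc
Sema4f had 3 E-boxes and 7 CpG dinucleotides, and Sema7a had 1 and 23. Both lie in the range of the 5 windows of the rising genes for G and C content, at 48.7% and 67.3%.

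Class 6 semaphorins, membrane-spanning ligands of A-type plexins, rose where they changed. Sema6b rose 5.06-fold, from 21.17, 12.24 and 25.29 to 110.9, 87.72 and 98.52 (2.33 ± 0.26, adjusted p = 0.000544), and rests on 58 reads with control siRNA against 311 in the SENP7 libraries. Sema6c was far more abundant and rose 1.37-fold, from 1367, 1453 and 1324 to 1985, 1892 and 1805 (0.46 ± 0.06, adjusted p = 0.00159). Each SENP7 library lay above each control library for Sema6b and Sema6c. Sema6d, at 89.71, 83.44 and 90.46 against 105.6, 123.0 and 129.8, passed narrowly (0.43 ± 0.13, adjusted p = 0.0469). That call was lost in 9 of 16 alternatives, among them DESeq2 and each removal of a library except control replicate 3, with adjusted p from 0.0384 to 0.157. Sema6a stood at 1709 ± 147 and 1700 ± 177 (-0.01, 95% interval -0.22 to 0.20), and its sign turned in 3 alternatives.

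The class 5 genes, whose proteins carry thrombospondin repeats beside the sema domain, were lower or did not pass. Sema5b had 21.17, 17.80 and 18.48 with control siRNA against 2.662, 2.140 and 7.578 in the SENP7 libraries, 56 reads against 13 in all (-2.12 ± 0.41, adjusted p = 0.00785). It met the filter on counts through the control libraries alone, and so had to differ to be tested. Sema5a was at 753.9, 927.9 and 1184 against 648.6, 633.3 and 997.5 and did not pass (-0.34, 95% interval -0.79 to 0.11). In each group replicate 3 was the highest for Sema5a, and the groups overlapped. With the replicate number as a block in the fit Sema5a passed (adjusted p = 0.00733, within 0.00733 to 0.598 over all alternatives).

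Of the 9 plexin genes 2 rose (22.2%), 1 fell (11.1%) and 6 did not pass. Of all genes tested 10.2% rose and 10.7% fell. Plxnc1, 1 of the 2 risers, had to differ to be tested, and with 9 genes nothing is read from these counts. Plxnd1, the receptor of Sema3E, rose 1.24-fold, from 2331, 2440 and 2497 to 2787, 2851 and 3362 (0.30 ± 0.08, adjusted p = 0.0250). SENP7 replicate 3 was the highest library by far for Plxnd1. Its call was lost without control replicates 1 or 2 (adjusted p = 0.0689 and 0.0877) or SENP7 replicates 2 or 3 (0.0578 and 0.0549), within 0.00324 to 0.0877 over all alternatives. Plxnb1, the receptor of Sema4D, fell from 1165, 1274 and 1516 to 1031, 985.3 and 1007 (-0.38 ± 0.09, adjusted p = 0.0202). Here control replicate 3 was the highest control library. The Plxnb1 call was lost without control replicate 2 (0.0680) and without SENP7 replicates 1, 2 or 3 (0.0620, 0.0801 and 0.0599), within 0.00367 to 0.0801 over all alternatives.

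Plxnc1, the receptor of Sema7A, rested on few reads, 9 in total with control siRNA and 48 with SENP7 siRNA. In normalized counts it was at 1.008, 3.338 and 4.864 against 19.52, 12.84 and 13.26 (2.10 ± 0.45, adjusted p = 0.0117), higher but at a very low level in all 6 libraries. Plxnc1 met the filter on counts through the SENP7 libraries alone, and so had to differ to be tested. Plxnb2, the plexin of Sema4C, stood at 18042 ± 989 and 16741 ± 202 (-0.11, 95% interval -0.26 to 0.05), and Plxnb3 at 147.7 ± 20.7 and 140.6 ± 9.40. Neither of these passed, and the sign of Plxnb3 turned to 0.01 without control replicate 2.

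No A-type plexin, the group that works with neuropilins, passed the test. Plxna2 came nearest, at 1298, 1691 and 1926 with control siRNA against 2058, 2006 and 2708 with SENP7 siRNA (0.47 ± 0.15, adjusted p = 0.0616). Its groups did not overlap, and it passed with DESeq2 (0.0182) and without control replicate 3 (0.0224), within 0.00131 to 0.259 over all alternatives. Plxna4 was at 269.1, 300.4 and 154.7 against 152.6, 166.9 and 162.9 (-0.53, adjusted p = 0.124). Control replicate 3 thus lay among the SENP7 libraries for Plxna4, and without it the gene passed (-0.82, adjusted p = 0.000291). It also passed with DESeq2 (0.0495), within 0.000291 to 0.375 over all alternatives. Plxna1, at 5000 ± 453 and 5308 ± 367, and Plxna3, at 1262 ± 156 and 1466 ± 66.3, did not pass, although Plxna3 did without control replicate 3 (0.0136, within 0.0136 to 0.281).

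Neither neuropilin passed. Nrp1 was at 1022, 1016 and 1018 with control siRNA against 938.7, 956.4 and 982.4 with SENP7 siRNA (-0.09, 95% interval -0.21 to 0.04), a small difference without overlap. Nrp2, at 3581, 3950 and 4985 against 4015, 4122 and 5637, had its highest value in replicate 3 of each group (0.13, 95% interval -0.21 to 0.47), and the sign turned to -0.02 without SENP7 replicate 3. Counts per gene do not separate secreted from membrane-bound forms of a neuropilin.

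The values can also be read by known ligand and receptor pairs. Both Sema3e and Plxnd1 rose, both Sema4d and Plxnb1 fell, and Sema7a fell. The calls of Plxnd1 and Plxnb1 were each lost in 4 of 16 alternatives. Plxnc1, the receptor of Sema7A, was higher, but it was tested only because its SENP7 libraries were high. Sema4c fell while Plxnb2 did not pass, and Sema3a rose while Nrp1 did not pass. The pairs were named with the single-gene values known, and no test of the pairs was made.

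Divided by exon length, the levels set the genes in order. Plxnb2 was by far the most abundant, at 2337 ± 128 normalized counts per kb in the control libraries, followed by Sema3b (709 ± 54.1), Sema7a (636 ± 71.1), Sema4c (596 ± 18.9) and Plxna1 (552 ± 50). The spreads of neighbours from Sema3b to Plxna1 overlapped. Next came Nrp2 (352 ± 61.5), Sema3d (335 ± 26.1) and Plxnd1 (332 ± 11.5), and at the bottom stood Sema4g (2.91 ± 0.835), Sema5b (2.70 ± 0.251) and Plxnc1 (0.368 ± 0.233). The genes with the largest fold changes were thus among the scarcer ones, with Sema3g at 8.28 ± 0.813 and 41.8 ± 9.42 per kb, and Sema6b at 4.93 ± 1.68 and 25.0 ± 2.92. In the SENP7 libraries Sema7a was at 328 ± 30.6 per kb, below Sema3d (445 ± 20.3) and Sema4c (436 ± 10.7).

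**Figure D2:**
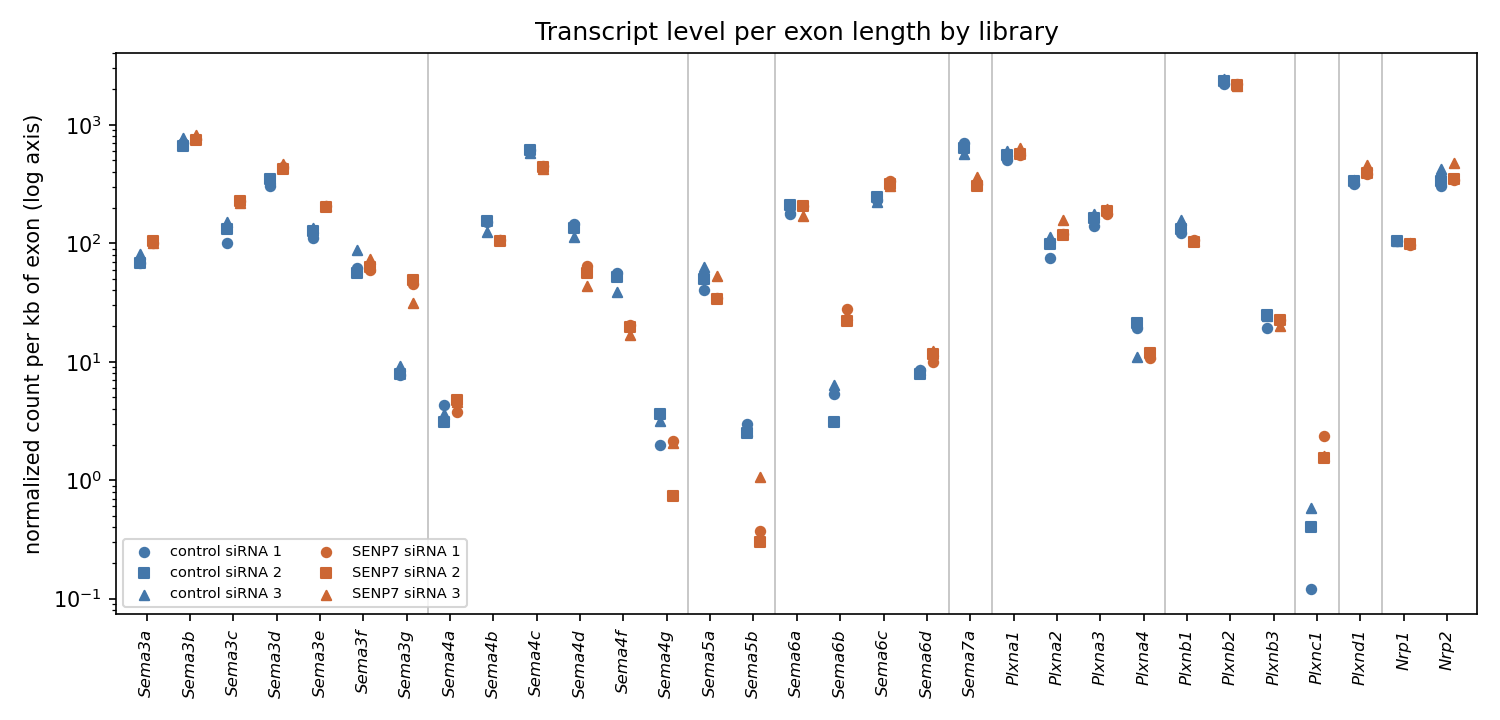
Each point is 1 library. The vertical log axis is the normalized count per kb of exon, with genes grouped by family. Plxnb2 is highest at 2337 per kb in the control libraries, and Plxnc1 lowest at 0.368.

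Summed per class, classes 3 and 6 took a larger share of the semaphorin transcripts after SENP7 siRNA, and classes 4 and 7 a smaller one. Class 3 genes made up 38.7%, 39.9% and 45.2% of all semaphorin transcript per kb with control siRNA, and 53.8%, 54.5% and 55.6% with SENP7 siRNA. Class 7 went from 20.3%, 18.1% and 16.1% to 9.33%, 9.06% and 10.5%, and class 4 from 27.7%, 27.2% and 24.4% to 18.9%, 18.7% and 17.4%. Control replicate 3 lay nearest to the SENP7 libraries in each of these 3 classes, and the groups did not overlap. Class 6 went from 12.1%, 13.3% and 12.4% to 17.0%, 16.7% and 14.9%. The summed level of A-type plexins was 825 ± 84.2 per kb with control siRNA and 915 ± 70.6 with SENP7 siRNA. These sums are given as a description, with no test, since they follow from the single genes above.

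**Figure D3:**
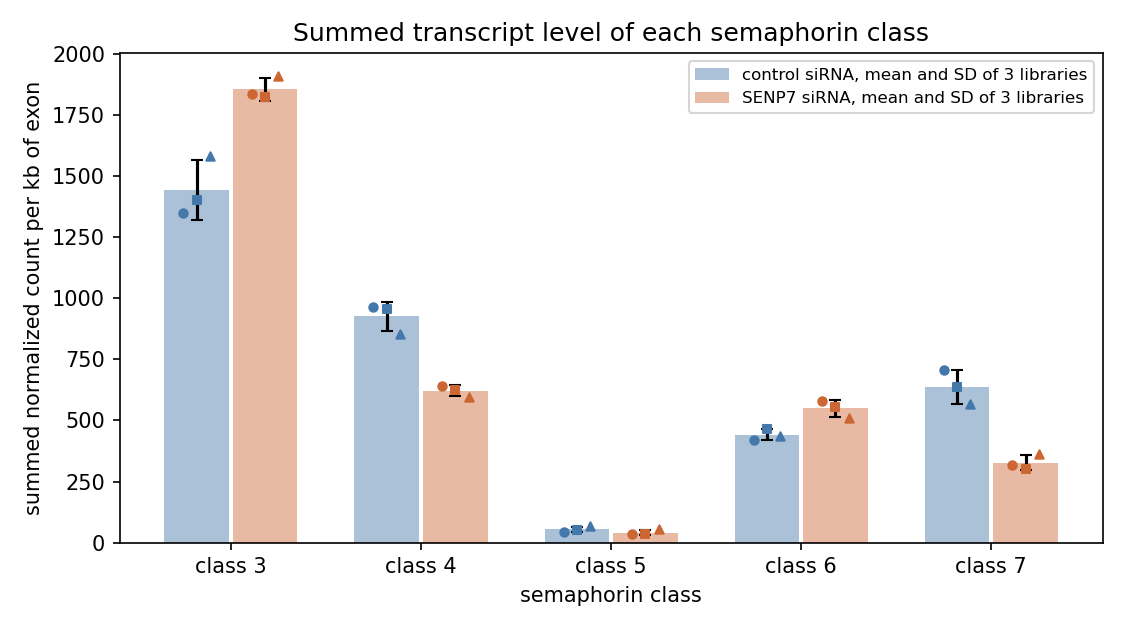
Bars are means of 3 libraries with SD, and points are the libraries. The vertical axis is the summed normalized count per kb of exon in each semaphorin class. Class 3 goes from 1446 to 1856 and class 7 from 636 to 328.

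Genes that process, relay or share semaphorin signals were followed in a list of 95 genes, of which 82 were tested. Among these 7 rose, 20 fell and 55 did not pass, with a median log2 fold change of -0.09 against -0.003 over all genes tested. The shares changed were 32.9% of this list and 20.9% of all genes. Of the list 8.54% rose and 24.4% fell, against 10.2% and 10.7% of all genes tested. The list was chosen with earlier results of these data known, so its shares, also those by role below, are a description. Without control replicate 3 the counts were 14 and 30, and without SENP7 replicate 2 they were 4 and 11. Without control replicate 2 or SENP7 replicate 1, 12 fell.

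Among genes listed as co-receptors or other receptors, 4 of 15 rose (26.7%) and 1 fell (6.67%), against 10.2% and 10.7% of all genes tested. The largest rise was that of Nrcam, an L1-type adhesion molecule that partners neuropilins in axons, from 10.08, 16.69 and 10.70 to 408.1, 439.7 and 270.0 (4.79 ± 0.24, adjusted p = 1.85e-05). Its relative L1cam, at 461.4 ± 28.8 and 417.3 ± 32.5, did not pass. Gfra1, a receptor for glial cell line-derived growth factor, rose from 1056 ± 118 to 2403 ± 277, Plxdc2, a plexin domain protein, from 127.3 ± 27.2 to 227.9 ± 45.9, and the integrin subunit Itga1 from 37.83 ± 4.24 to 68.22 ± 18.1. The Plxdc2 call was lost without SENP7 replicate 1 or 2. That of Itga1 was lost without control replicate 1 or 2, or SENP7 replicate 2 or 3. The proteoglycan gene Cspg4 fell by 0.39 on the log2 scale.

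Of 7 growth factor genes whose proteins bind neuropilins or their partner receptors, 1 rose (14.3%) and 3 fell (42.9%). Of all genes tested 10.2% rose and 10.7% fell. Vegfa went from 7810.4, 7884 and 6062 to 4825, 4715 and 4578 (-0.61 ± 0.10, adjusted p = 0.00328), with control replicate 3 the lowest control library. Vegfc fell from 559.4 ± 162 to 302.3 ± 17.1 and Tgfb1 by 0.34 on the log2 scale. Vegfd rose from 96.21 ± 17.5 to 164.9 ± 13.1. The receptor genes Kdr and Flt4, through which some vascular endothelial growth factors act, were under the filter, at 2.281 and 0.3709 normalized counts on average in the control libraries. Flt1, a receptor gene of the same list, was tested and did not pass, at 42.41 ± 12.9 and 29.08 ± 4.55 (-0.49, adjusted p = 0.221).

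Kinases, adaptors and small GTPases mostly fell where they changed. Of 20 adaptors and kinases 8 fell (40.0%) and 1 rose (5.0%), where 10.7% of all genes tested fell and 10.2% rose. Src (-0.50 ± 0.06, adjusted p = 0.000588), Pak1 (-0.49 ± 0.07) and Limk1 (-0.46 ± 0.07), which lead from receptors to actin, fell, as did Ptk2b (-0.40) and Fer (-0.31). Cdk5r1, the activator of the kinase Cdk5, rose from 686.8 ± 2.30 to 1053 ± 53.1, while Cdk5 did not pass (-0.09). Of 22 small GTPases and regulators 7 fell (31.8%) and 1 rose (4.55%). The riser was Rnd3 (0.38 ± 0.09, adjusted p = 0.0199), whose call was lost without control replicate 1 or 2, or SENP7 replicate 2 or 3. Rap1a (-0.48) and Rap1b (-0.23), GTPases on which the plexin domain acts, were among those that fell, as were Rnd1 (-0.52) and Rnd2 (-0.50), GTPases that bind plexins. Of 13 cytoskeletal effectors 1 fell (Micall2, -0.50 ± 0.10), which is 7.69%, and 0 rose. These effectors include the MICAL oxidases and the collapsin response mediators Dpysl2 and Dpysl3. The 5 tested proteases that cut semaphorins did not pass with limma, with Pcsk6 (0.57, adjusted p = 0.146) and Furin (-0.18, adjusted p = 0.169) nearest.

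**Figure D4:**
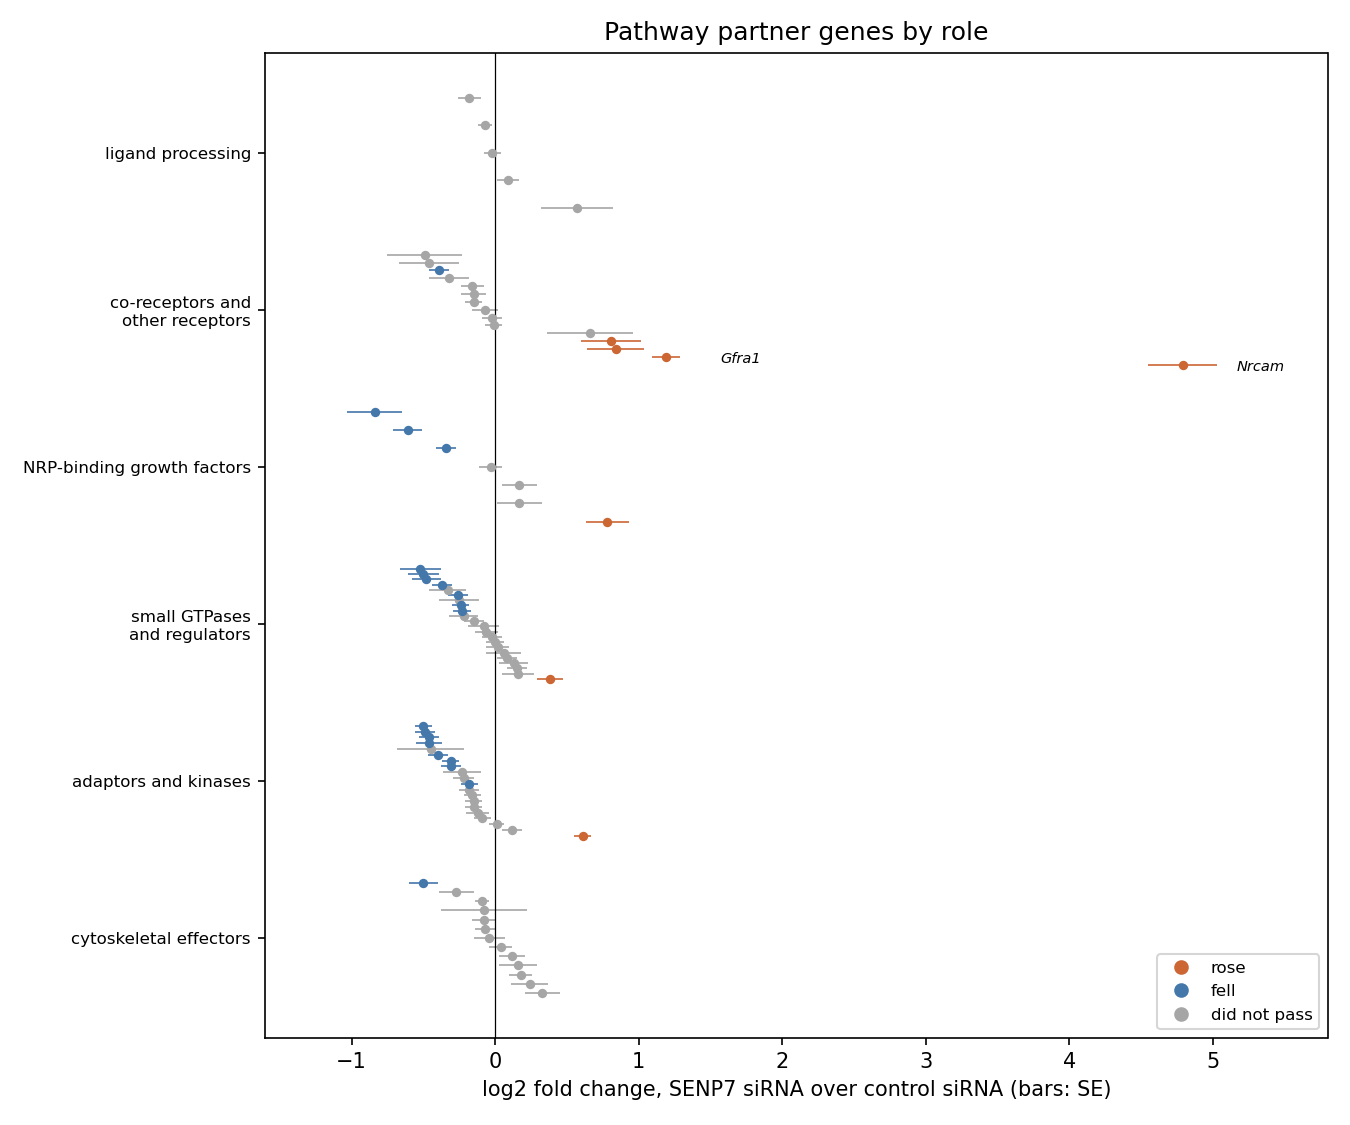
Each point is the log2 fold change of 1 tested gene with its SE, sorted within its role, and colour gives the call. Nrcam stands far to the right at 4.79, and most coloured points among kinases and small GTPases lie left of 0.

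These are bulk libraries, in which fewer cells of a type and less RNA per cell cannot be told apart. Myotube markers were abundant in every library, summing to 580840 to 624212 normalized counts with control siRNA and 662354 to 734241 with SENP7 siRNA. Of these 8 markers 2 rose (Ckm and Mymk) and 0 fell. Of the myoblast markers, Pax7 rose and Myf5 did not pass. The 4 markers of proliferating cells summed to 5231 to 7199 normalized counts with control siRNA and 4643 to 6070 with SENP7 siRNA, and none passed. Of markers of other cells that use semaphorins, the neuronal Rbfox3, Snap25 and Syt1 were at 0 in all 6 libraries. The neuronal Elavl3 was at 2.918 to 3.338 with control siRNA and 4.279 to 6.631 with SENP7 siRNA, under the filter and without overlap. The leukocyte list summed to at most 25.20 (Adgre1 at 0). Itgam, at 6.87 and 14.82 on average, met the filter on counts through the SENP7 libraries alone, and so had to differ to be tested. The glial list summed to 59.47 to 77.88 and 63.47 to 86.66, and the adipocyte list to at most 3.21. The endothelial list summed to 58.46 to 77.88 with control siRNA and 95.22 to 113.7 with SENP7 siRNA, mostly Vwf. Tek went from 5.445 to 14.25 on average, with the same limit as Itgam. The fibroblast list had 2 of 4 markers higher and 1 lower, where 20.9% of all genes tested changed. Its sums overlapped between groups (2989 to 3915 and 3318 to 3962), but they join opposite changes. Dcn rose from 991.3 ± 335 to 1984 ± 195 and Dpt from 44.57 ± 1.15 to 74.99 ± 23.0. Ly6a fell from 2108 ± 190.3 to 1338 ± 94.7, and Pdgfra did not pass. The part of these markers in the semaphorin changes was not tested.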

How the data were processed

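RNA was sequenced from 6 libraries, 3 per group, with a directional poly(A) kit, per the labels' protocols. STAR 2.6.1d, Trim Galore 0.6.4, featureCounts 1.6.4, DESeq2, bcl2fastq and the build GRCm38.p6 are named in the submitters' processing notes. Not given in the sources used here are the annotation release and whether counting used strand. The deposited library columns and their mean hold a normalized signal, which the values show to be the authors' count divided by 1 factor per library. Divided by that step, 100% of the positive values per library came within 0.1 of a whole read, so reads could be recovered, on which edgeR called 1472 genes higher and 1580 lower. The authors' log2 fold change, Wald score and p-value stand beside them, per the file headers. By the authors' deposited table, of the 31 genes 10 were higher and 7 lower, and 29 had the same call as here, all but Plxna2 and Sema6d. The authors' log2 fold changes were smaller in size for low genes. Plxnc1 was at 0.68 against 2.10 here, Sema5b at -0.77 against -2.12 and Sema6b at 1.63 against 2.33.

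Since these are normalized values and not raw counts, the test was limma 3.58.1 in R 4.3.3, fitted with a mean-variance trend and robust empirical Bayes on log2(normalized count + 1). Genes that reached 10 normalized counts in 3 or more libraries were tested, the group was the sole term and tests were two-sided. Alternatives were edgeR 4.0.16 (2 scalings), DESeq2 1.42.0 and limma-voom on recovered reads, the replicate number as a block, quantile normalization, other filters and pseudocounts, a threshold of 0.01 and each library left out. Counts of alternatives and ranges for single genes leave out that threshold. The fit was tested on simulated data. Exon lengths came from the table and equalled those of GENCODE M21. The genes and lists were chosen with earlier results of these data known. Every gene found by name is described, and of the partner list Nrcam, L1cam and up to 8 genes with the smallest adjusted p in each direction, with a few others named after their values were seen.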

Additional observations from a re-analysis of the deposited data

How the results depend on the processing

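Among all genes tested, the counts of 1492 higher and 1570 lower ranged from 714 to 2289 and from 732 to 2368 when 1 library was left out. For semaphorins, plexins and neuropilins the rising count ranged from 7 to 13 and the falling count from 4 to 7. Class 3 genes rose in 5 to 6 and class 4 genes fell in 3 to 4 cases. The partner list ranged from 4 to 14 higher and 11 to 30 lower. At a threshold of 0.01, 718 genes were higher and 680 lower, with 4 partner genes higher and 12 lower. No other alternative moved these counts by over 1.5 times, and Senp7 fell in each. The sign of 4 genes that did not pass turned when 1 library was left out: Nrp2 ranged from -0.02 to 0.27, Plxnb3 from -0.18 to 0.01, Sema3f from -0.19 to 0.14 and Sema6a from -0.08 to 0.08.

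The replicate number as a block gave 12 higher and 8 lower of the 31 genes, and Plxna2 (adjusted p = 0.00131), Plxna3 (0.0233) and Sema5a (0.00733) then passed. Deviations from the group mean correlated at 0.13, 0.06 and 0.25 between same-numbered libraries, and at -0.22 to 0.14 between unlike-numbered ones. For replicate 3 the same-numbered value (0.25) stood above its unlike-numbered ones (-0.22 to -0.10). The labels do not call the numbers pairs, and the main test did not use them. Whether same-numbered libraries share variation is not settled by these values. Low counts limit Plxnc1, Sema5b, Sema4a and Sema4g. These had no value where genes needed a mean of 50, and Plxnc1 and Sema5b none where a library of their higher group was left out.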
